A study of Mus musculus with 8 samples.

Results

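The genes described here are 49 genes of mitosis and cytokinesis, read from the deposited gene table by their symbols. All 49 were found among its 32859 genes, on 16 chromosomes, and all 49 had enough counts to be tested. The cells were primary portal fibroblasts, the collagen-producing fibroblasts that surround the portal veins and bile ducts of the liver. They were sorted by flow cytometry for the red tdT reporter from normal Clec3bCreERT2;R26tdT mice, in which a tamoxifen-inducible Cre under Clec3b control switches the reporter on. The sorted cells then received a lentivirus that overexpresses Klf4, a zinc-finger transcription factor (the 4 Lenti-Klf4 libraries), or a control virus (the 4 Lenti-Ctrl libraries). By this protocol all 8 libraries came from reporter-positive, virus-treated cells, and the labels set the groups apart by the vector. RNA of markers of other cell types also differed between the groups, as given below. The sources used here give neither the age and sex of the mice nor the time after transduction. They also leave unsaid if each library had its own animal, so p-values measure only the spread between these libraries, which may be technical. The study asked how Klf4 bears on the change of these fibroblasts into myofibroblasts. The comparison below asks how the RNA of the mitotic genes differed between the Lenti-Klf4 and Lenti-Ctrl libraries.

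Mitosis is entered when the kinase Cdk1, bound to cyclin A or cyclin B, is freed of its inhibitory phosphates by Cdc25 phosphatases. Condensin and topoisomerase II then compact the chromosomes, kinetochores attach them to the spindle, and the spindle checkpoint holds back the anaphase-promoting complex until every chromosome is attached. That complex, with its activator Cdc20, then marks securin and cyclin B for destruction, separase cuts cohesin, and the contractile ring divides the cell. RNA of many of these genes peaks in G2 and M phase. That peak is known to depend on the MuvB complex with B-Myb, on Foxm1, and on promoter elements named CHR (TTTGAA) and the CCAAT box, which NF-Y binds. Mki67 encodes Ki-67, a protein that coats mitotic chromosomes and is widely used as a mark of dividing cells.

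Total counts per library lay between 57950960 and 82847723 in the Lenti-Klf4 group and between 57306334 and 87361995 in the Lenti-Ctrl group. Levels are given in CPM, counts scaled to a common library size. Klf4 itself (ENSMUSG00000003032) was measured at 201, 241, 234 and 235 CPM in the Lenti-Klf4 libraries, against 86.8, 92.3, 83.0 and 87.1 CPM in the Lenti-Ctrl libraries. Every Lenti-Klf4 library was above every Lenti-Ctrl library, in the direction of the labels, and the counts do not separate vector RNA from endogenous Klf4 RNA. Clec3b, whose promoter drives the Cre, averaged 0.280 ± 0.174 CPM in Lenti-Klf4 libraries and 0.0171 ± 0.0342 CPM in Lenti-Ctrl libraries (SD, n = 4 each), so its RNA was close to 0 in both groups. RNA of cell type markers moved with the vector. The summed level of 18 measured macrophage and leukocyte markers ranged from 185 to 257 CPM in Lenti-Klf4 libraries and from 5666 to 6099 CPM in Lenti-Ctrl libraries, of which Lyz2, lysozyme, averaged 169 ± 25.3 CPM in Lenti-Klf4 libraries and 3659 ± 134 CPM in Lenti-Ctrl libraries. Of the 17 that could be tested, 16 were lower with Lenti-Klf4. Over all genes tested, 34.7% were called lower and 37.5% higher, the shares to set beside this and the next counts. Cx3cr1 and Clec4f were at 0 counts in all 4 Lenti-Klf4 libraries and averaged 34.7 and 16.5 CPM in Lenti-Ctrl libraries, and Timd4 was at 0 counts in the Lenti-Klf4 libraries and at 0.111 CPM in the Lenti-Ctrl libraries. Endothelial markers summed to between 102 and 143 CPM with Lenti-Klf4 and between 1332 and 1354 CPM with Lenti-Ctrl, with 10 of 10 tested lower. Fibroblast markers summed to 9355 ± 698 CPM with Lenti-Klf4 and 23807 ± 502 CPM with Lenti-Ctrl, with 2 of 11 higher and 9 lower. The collagen genes Col1a1, Col1a2 and Col3a1 made up most of this sum. They averaged 2749, 2982 and 2154 CPM in Lenti-Klf4 libraries and 10815, 5425 and 4531 CPM in Lenti-Ctrl libraries. The 2 higher were Thy1 (log2 1.80) and Cd34 (log2 2.15), and of the 9 lower Pdgfra fell least (log2 -0.16). Hepatocyte and cholangiocyte markers summed to between 700 and 752 CPM with Lenti-Klf4 and between 385 and 401 CPM with Lenti-Ctrl, with 6 of 7 tested higher. Spp1, osteopontin, made up most of that sum, with 601 ± 35.6 CPM in Lenti-Klf4 libraries and 364 ± 7.36 CPM in Lenti-Ctrl libraries, while the hepatocyte gene Alb averaged 2.98 ± 0.471 CPM in Lenti-Klf4 libraries and 0.271 ± 0.284 CPM in Lenti-Ctrl libraries. Sox9, Krt7 and Krt19 were higher too, with log2 fold changes of 3.57, 2.11 and 1.18. Hnf4a, also called higher, averaged only 0.491 CPM with Lenti-Klf4 and 0.131 CPM with Lenti-Ctrl. Epcam averaged 0.991 CPM with Lenti-Klf4 and 1.26 CPM with Lenti-Ctrl and did not pass (adjusted p = 0.242, edgeR). Apoa1 and Ttr were close to 0 in both groups and could not be tested. These shifts run alongside every value below, and their part in the results was not tested. In bulk RNA, a larger share of dividing cells and more mitotic RNA per cell cannot be told apart.

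With Lenti-Klf4, 44 of the 49 mitotic genes rose, 2 fell and 3 did not pass the test (edgeR quasi-likelihood test, Benjamini-Hochberg adjusted p under 0.05 over 18439 genes). Change was common in this experiment. Of all genes tested, 37.5% were called higher and 34.7% lower, or 72.2% in either direction. The median log2 fold change was 1.15 over the mitotic genes, or 2.22-fold, and 0.03 over all genes tested. A rise with a log2 fold change above 1 was called for 28 of the 49, against 16.4% of all genes tested. In 43 of the 49 all 4 Lenti-Klf4 libraries lay above all 4 Lenti-Ctrl libraries (36% of all genes tested did so), and in 1, Pttg1, all lay below (33.2%). Ccnb2, Cenpa, Mki67, Nusap1 and Plk1 had overlapping groups. The members' log2 fold changes ranged from -0.41 for Pttg1, the securin gene, to 2.56 for Ncapg, a condensin gene.

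**Figure D1:**
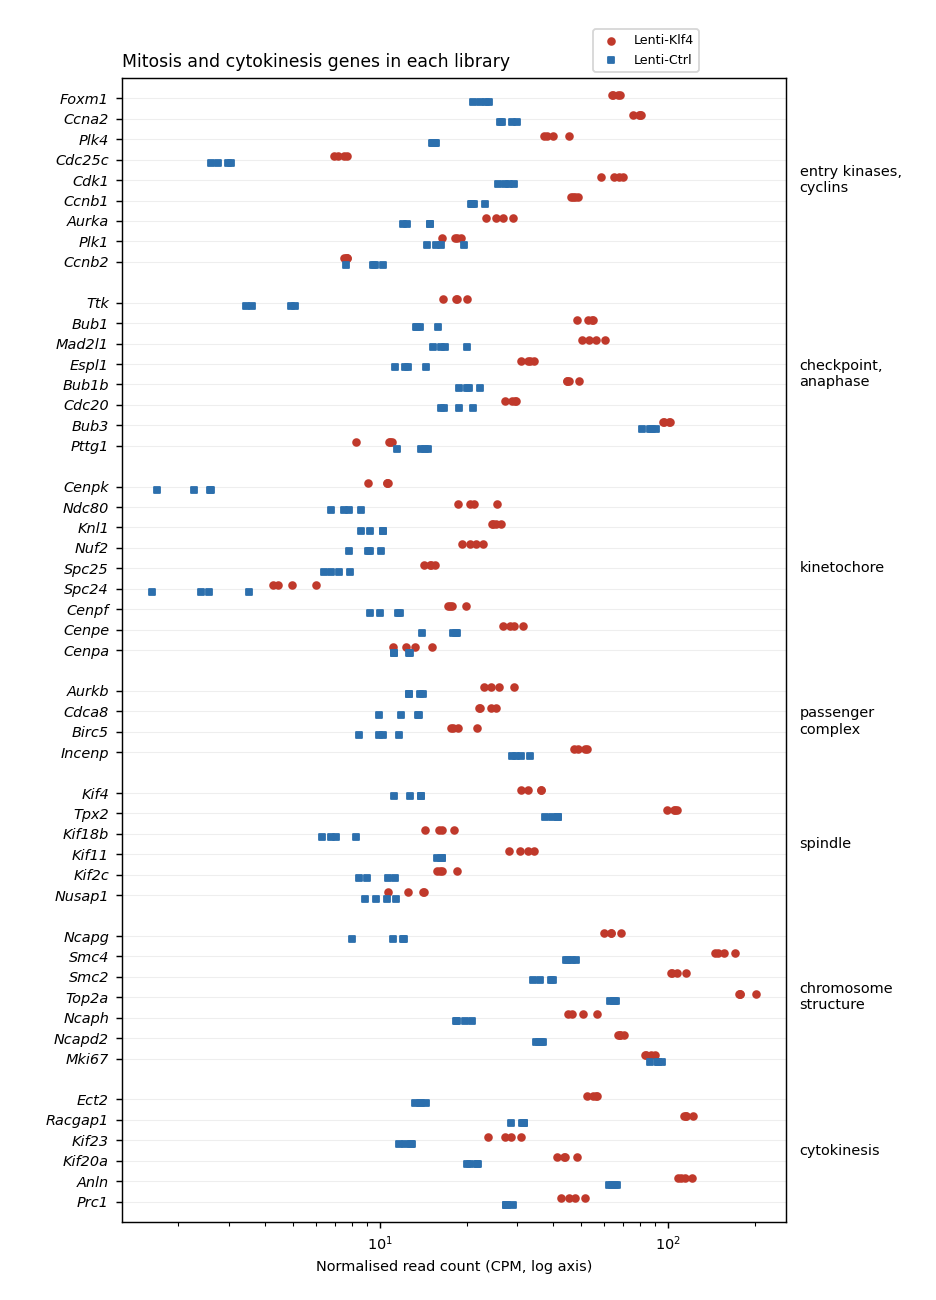
Level of each of the 49 genes in every library, as CPM on a log axis, with Lenti-Klf4 libraries and Lenti-Ctrl libraries in separate colours and the genes grouped by role. The groups are apart for 44 genes and overlap for Ccnb2, Cenpa, Mki67, Nusap1 and Plk1.

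The genes that start mitosis were among those that rose, with a median log2 fold change of 1.24 over 9 genes. Cdk1 (ENSMUSG00000019942, chromosome 10, 69170976 to 69188768 in GRCm39), the kinase that drives mitotic entry, had 67.3, 58.7, 64.8 and 69.9 CPM in the Lenti-Klf4 libraries, against 27.2, 25.7, 28.0 and 29.2 CPM in the Lenti-Ctrl libraries. All Lenti-Klf4 libraries were well above all Lenti-Ctrl libraries, a 2.37-fold rise (log2 1.24 ± 0.0614 SE, adjusted p = 1.69e-09, edgeR). Its partner Ccna2, cyclin A2, had 80.8, 79.3, 75.8 and 79.9 CPM in the Lenti-Klf4 libraries, against 28.8, 26.4, 29.8 and 26.1 CPM in the Lenti-Ctrl libraries. The groups did not overlap and the rise was 2.84-fold (adjusted p = 5.62e-11, edgeR). Foxm1, a transcription factor of G2 and M phase genes, had 68.0, 64.0, 64.3 and 66.9 CPM in the Lenti-Klf4 libraries, against 21.1, 22.3, 23.3 and 23.9 CPM in the Lenti-Ctrl libraries. It rose 2.91-fold (log2 1.54 ± 0.0515 SE, adjusted p = 4.74e-11, edgeR), with no overlap. Plk4, the kinase that starts centriole duplication, rose 2.60-fold and Cdc25c, the phosphatase that activates Cdk1, rose 2.59-fold, although Cdc25c was a low gene with 7.32 ± 0.332 CPM in Lenti-Klf4 libraries and 2.83 ± 0.204 CPM in Lenti-Ctrl libraries. Aurka, the centrosomal Aurora kinase, rose 1.92-fold (adjusted p = 1.76e-06, edgeR).

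The pair of B-type cyclins had calls of opposite sign. Ccnb1, cyclin B1, had 47.4, 46.1, 46.9 and 48.6 CPM in the Lenti-Klf4 libraries, against 20.6, 20.8, 23.2 and 21.2 CPM in the Lenti-Ctrl libraries. Its groups lay far apart, with a 2.203-fold rise (log2 1.14 ± 0.0542 SE, adjusted p = 1.20e-09, edgeR). Ccnb2, cyclin B2, had 7.65, 7.51, 7.71 and 7.69 CPM in the Lenti-Klf4 libraries, against 9.49, 9.62, 10.3 and 7.64 CPM in the Lenti-Ctrl libraries. Lenti-Ctrl replicate 4 lay inside the Lenti-Klf4 range and the other Lenti-Ctrl libraries above it. Its log2 fold change was -0.28 ± 0.112 SE (adjusted p = 0.0419, edgeR), a call that ended when any 1 of 7 of the 8 libraries was left out (adjusted p between 0.0570 and 0.117) and held only without Lenti-Ctrl replicate 4 (0.00799). It also ended with library totals alone, with log2 FPKM values, with no filter on low counts, with the replicate block (0.0715) and against a 1.5-fold threshold. The ratio of Ccnb1 to Ccnb2 in FPKM, which divides by transcript length, was 2.24 ± 0.0345 in Lenti-Klf4 libraries and 0.850 ± 0.105 in Lenti-Ctrl libraries (SD, n = 4 each), ranging from 2.21 to 2.29 with Lenti-Klf4 and from 0.784 to 1.01 with Lenti-Ctrl. This ratio and the other ratios between pairs of genes given below were chosen after the values had been seen and carry no test. Plk1, the polo-like kinase of mitotic entry and exit, had 18.2, 19.1, 16.4 and 18.5 CPM in the Lenti-Klf4 libraries, against 16.3, 14.6, 19.6 and 15.6 CPM in the Lenti-Ctrl libraries. The libraries of the groups were interleaved, and the log2 fold change of 0.13 ± 0.0953 SE did not pass (adjusted p = 0.241, edgeR). It passed as higher with library totals alone (log2 0.32), with log2 FPKM values and without Lenti-Ctrl replicate 3, its highest library (adjusted p = 0.0368).

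**Figure D2:**
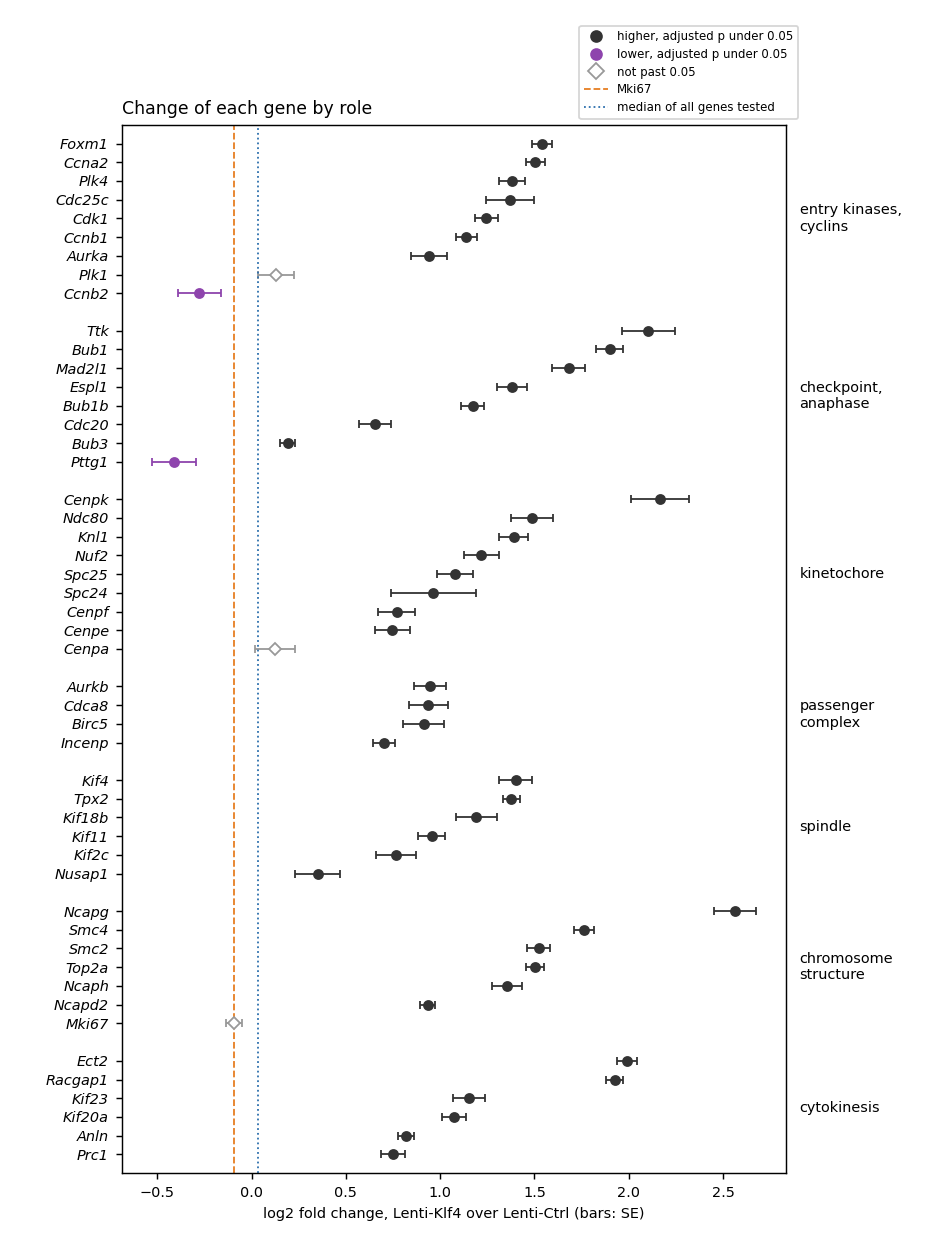
Log2 fold change of Lenti-Klf4 over Lenti-Ctrl for each of the 49 genes, as points with standard errors, in 7 roles, with the call of the edgeR test by colour. Ncapg stands highest at 2.56, 41 points lie between 0.65 for Cdc20 and 2.16 for Cenpk, Bub3 and Nusap1 are at 0.19 and 0.35, and Ccnb2, Pttg1, Plk1, Cenpa and Mki67 lie between -0.41 and 0.13.

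Of the 8 genes of the spindle checkpoint and the anaphase trigger, 7 rose and 1 fell, and their log2 fold changes had a median of 1.28. Ttk, the kinase Mps1 at the head of the checkpoint, had 20.1, 16.6, 18.5 and 18.4 CPM in the Lenti-Klf4 libraries, against 5.08, 4.92, 3.61 and 3.44 CPM in the Lenti-Ctrl libraries. No library of one group came near the other, and the rise was 4.30-fold (adjusted p = 2.61e-08, edgeR). Bub1, a checkpoint kinase at kinetochores, had 54.8, 54.7, 52.6 and 48.2 CPM in the Lenti-Klf4 libraries, against 13.7, 13.4, 13.4 and 15.9 CPM in the Lenti-Ctrl libraries. It rose 3.73-fold with no overlap (log2 1.899 ± 0.0710 SE, adjusted p = 1.28e-10, edgeR). Mad2l1, which encodes the Mad2 inhibitor of Cdc20, rose 3.21-fold, and Bub1b, which encodes BubR1 of the same inhibitory complex, rose 2.25-fold. Bub3, which tethers Bub1 and BubR1 to kinetochores, had 98.8 ± 2.92 CPM in Lenti-Klf4 libraries and 86.6 ± 4.12 CPM in Lenti-Ctrl libraries (SD, n = 4 each). Its 1.14-fold rise passed the test (adjusted p = 0.00120, edgeR) but not a test against a 1.5-fold change, and an opposite-strand neighbour, Fgfr2, overlaps it.

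The genes of the anaphase trigger itself were divided. Espl1, the separase that cuts cohesin, had 32.7, 33.3, 30.8 and 34.4 CPM in the Lenti-Klf4 libraries, against 14.4, 11.3, 12.2 and 12.5 CPM in the Lenti-Ctrl libraries. It rose 2.60-fold (adjusted p = 8.18e-09, edgeR). Pttg1, the securin that holds separase inactive, had 8.30, 10.8, 10.8 and 10.998 CPM in the Lenti-Klf4 libraries, against 11.5, 13.9, 14.7 and 14.3 CPM in the Lenti-Ctrl libraries. All Lenti-Klf4 libraries lay below all Lenti-Ctrl libraries, and the fitted level was 0.752 of that with Lenti-Ctrl (log2 -0.41 ± 0.117 SE, adjusted p = 0.00710, edgeR). That call ended with library totals alone, with log2 FPKM values and against a 1.5-fold threshold. Cdc20, the activator of the anaphase-promoting complex, had 29.4, 29.7, 28.8 and 27.1 CPM in the Lenti-Klf4 libraries, against 18.8, 21.1, 16.7 and 16.3 CPM in the Lenti-Ctrl libraries. It rose 1.57-fold (adjusted p = 1.49e-05, edgeR) and did not pass against a 1.5-fold change (0.169). The FPKM ratio of Espl1 to Pttg1 averaged 0.745 in Lenti-Klf4 libraries and 0.216 in Lenti-Ctrl libraries.

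At the kinetochore, 8 of 9 genes rose, with a median log2 fold change of 1.08. Cenpk, a subunit of the inner kinetochore network that joins the centromere to the outer layer, had 10.6, 10.6, 10.6 and 9.12 CPM in the Lenti-Klf4 libraries, against 2.60, 1.69, 2.57 and 2.26 CPM in the Lenti-Ctrl libraries. It rose 4.48-fold from a low level (adjusted p = 5.53e-08, edgeR), and the overlapping opposite-strand gene Ppwd1 also rose, by 0.88 on the log2 scale. The 4 subunits of the Ndc80 complex, which grips the microtubule, all rose. Ndc80 rose 2.80-fold, Nuf2 2.33-fold, Spc25 2.11-fold and Spc24, the least abundant of the 4 in CPM, 1.95-fold. Spc24 had 4.96, 6.03, 4.44 and 4.27 CPM in the Lenti-Klf4 libraries, against 2.40, 3.52, 2.55 and 1.62 CPM in the Lenti-Ctrl libraries, with no overlap but a wide spread (log2 0.96 ± 0.224 SE, adjusted p = 0.00193, edgeR). Knl1, the scaffold on which Bub1 and Bub3 assemble, rose 2.62-fold. Cenpe, a kinetochore kinesin, and Cenpf, a large protein of the fibrous corona, rose 1.68-fold and 1.71-fold. Cenpa, the histone H3 variant that marks centromeres, had 13.3, 11.1, 12.3 and 15.2 CPM in the Lenti-Klf4 libraries, against 11.2, 12.7, 12.6 and 11.2 CPM in the Lenti-Ctrl libraries. The groups overlapped and the log2 fold change of 0.12 ± 0.106 SE did not pass (adjusted p = 0.317, edgeR), while it passed as higher with library totals alone (log2 0.32) and with log2 FPKM values.

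The 4 subunits of the chromosomal passenger complex, which corrects faulty attachments and later directs cytokinesis, all rose, with a median log2 fold change of 0.93. Aurkb, its kinase, had 25.8, 24.4, 23.0 and 29.3 CPM in the Lenti-Klf4 libraries, against 12.6, 12.7, 13.8 and 14.2 CPM in the Lenti-Ctrl libraries, a 1.93-fold rise (adjusted p = 5.73e-07, edgeR). Cdca8, which encodes borealin, rose 1.91-fold, Birc5, which encodes survivin, 1.88-fold, and the scaffold Incenp 1.63-fold. None of the 4 reached a log2 fold change of 1. The FPKM ratio of Birc5 to Aurkb averaged 0.649 with Lenti-Klf4 and 0.660 with Lenti-Ctrl, and that of Cdca8 to Aurkb 0.523 with Lenti-Klf4 and 0.525 with Lenti-Ctrl.

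All 6 genes of spindle motors and assembly rose, with a median log2 fold change of 1.07. Kif4, a chromosome-borne kinesin, rose 2.64-fold. Tpx2, which activates Aurora A on spindle microtubules, had 107, 106, 105 and 99.2 CPM in the Lenti-Klf4 libraries, against 41.6, 39.6, 37.5 and 41.7 CPM in the Lenti-Ctrl libraries. The groups lay far apart, with a rise of 2.60-fold (adjusted p = 3.32e-11, edgeR). Kif18b, which shortens astral microtubules, rose 2.29-fold, Kif11, the motor Eg5 that pushes the spindle poles apart, 1.94-fold, and Kif2c, the microtubule depolymerase MCAK, 1.70-fold. Nusap1, which bundles spindle microtubules, had 14.3, 10.7, 12.5 and 14.2 CPM in the Lenti-Klf4 libraries, against 11.4, 8.85, 10.6 and 9.66 CPM in the Lenti-Ctrl libraries. The groups overlapped, and its 1.27-fold rise (adjusted p = 0.0176, edgeR) was lost without Lenti-Klf4 replicate 1 (0.0628), Lenti-Klf4 replicate 4 (0.0613) or Lenti-Ctrl replicate 2 (0.0574).

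The largest rise of all 49 genes was in condensin. Ncapg (ENSMUSG00000015880, chromosome 5, 45827261 to 45857888 in GRCm39), a subunit of condensin I, had 68.9, 59.7, 63.5 and 63.6 CPM in the Lenti-Klf4 libraries, against 11.1, 12.02, 12.1 and 7.99 CPM in the Lenti-Ctrl libraries. Every Lenti-Klf4 library was far above every Lenti-Ctrl library, among which replicate 4 was the lowest, and the fitted rise was 5.91-fold (log2 2.56 ± 0.112 SE, adjusted p = 5.20e-10, edgeR). Ncapg overlaps Lcorl on the opposite strand, whose log2 fold change was 1.57. Smc4, a core ATPase shared by both condensins, had 171, 149, 156 and 146 CPM in the Lenti-Klf4 libraries, against 46.3, 44.1, 45.0 and 48.1 CPM in the Lenti-Ctrl libraries, a 3.39-fold rise (adjusted p = 1.68e-11, edgeR). Its partner Smc2 rose 2.87-fold, Ncaph, the kleisin of condensin I, 2.56-fold and Ncapd2, its other HEAT-repeat subunit, 1.91-fold. In FPKM, Ncapg was 0.828 of Ncapd2 in Lenti-Klf4 libraries and 0.268 of it in Lenti-Ctrl libraries, while Ncaph was 1.05 of Ncapd2 with Lenti-Klf4 and 0.789 of it with Lenti-Ctrl. Top2a, topoisomerase II alpha, had 202, 176, 177 and 178 CPM in the Lenti-Klf4 libraries, against 64.9, 65.1, 65.9 and 62.9 CPM in the Lenti-Ctrl libraries. It rose 2.83-fold (log2 1.502 ± 0.0465 SE, adjusted p = 2.37e-11, edgeR).

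**Figure D3:**
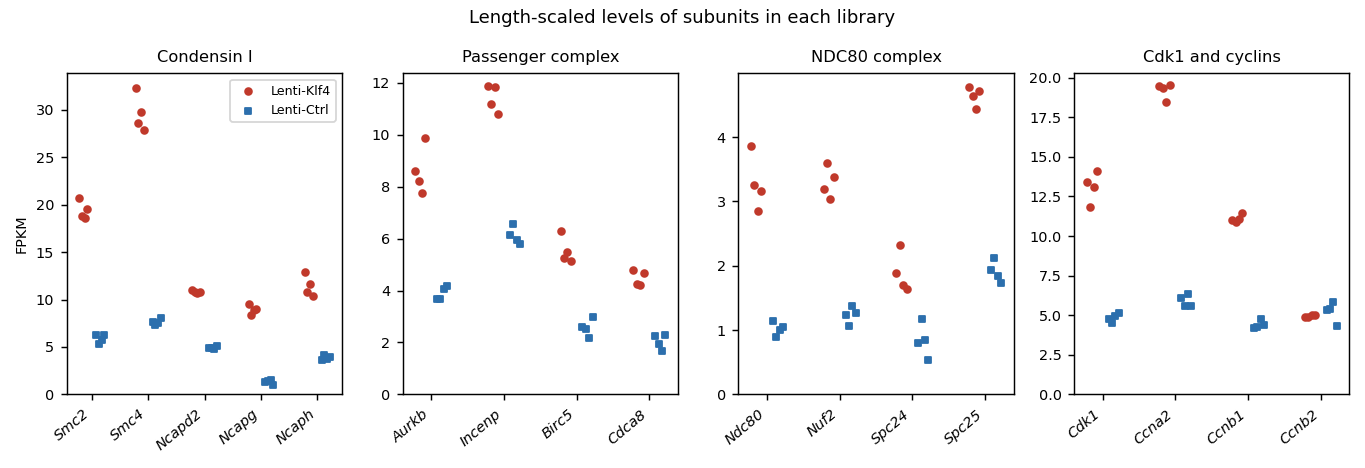
FPKM of genes whose products work as partners, in each library, with Lenti-Klf4 left of Lenti-Ctrl for each gene. Ccnb1 and Ccnb2 lie at a like level with Lenti-Ctrl and apart with Lenti-Klf4, where their ratio averages 2.24.

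Cytokinesis genes rose without exception among the 6 examined. Racgap1, a subunit of the centralspindlin complex, had 122, 114, 115 and 115 CPM in the Lenti-Klf4 libraries, against 28.5, 31.6, 31.0 and 31.7 CPM in the Lenti-Ctrl libraries, a 3.80-fold rise (adjusted p = 1.93e-12, edgeR). Ect2, the exchange factor that centralspindlin recruits to the division plane, had 56.7, 56.2, 52.5 and 54.9 CPM in the Lenti-Klf4 libraries, against 13.8, 13.3, 14.5 and 13.9 CPM in the Lenti-Ctrl libraries. The libraries of each group lay close together, and the rise was 3.97-fold (adjusted p = 6.41e-12, edgeR). Kif23, the motor subunit of centralspindlin, rose 2.22-fold, and its FPKM ratio to Racgap1 averaged 0.211 with Lenti-Klf4 and 0.361 with Lenti-Ctrl. Kif20a, a kinesin of the central spindle, rose 2.104-fold, Anln, the anillin of the contractile ring, 1.76-fold, and Prc1, which crosslinks antiparallel microtubules, 1.68-fold.

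Mki67 (ENSMUSG00000031004, chromosome 7, 135291513 to 135318090 in GRCm39) was nearly level between the groups. It had 89.9, 83.7, 86.9 and 82.8 CPM in the Lenti-Klf4 libraries, against 95.2, 92.1, 92.0 and 86.7 CPM in the Lenti-Ctrl libraries. The groups overlapped, because Lenti-Klf4 replicates 1 and 3 lay above the lowest Lenti-Ctrl library, and the log2 fold change of -0.09 ± 0.0408 SE did not pass (adjusted p = 0.0597, edgeR). Its sign turned with the scaling, and its call also with single libraries. It was -0.12 and called lower with DESeq2 (adjusted p = 0.0124), lower also with the replicate block (0.0408) and in the authors' deposited table (-0.17, adjusted p = 0.000152), and lower without Lenti-Klf4 replicate 1 (0.0119) or Lenti-Ctrl replicate 4 (0.0224). With library totals alone it was 0.10 and called higher (0.0292), as it was at 0.09 to 0.11 with log2 FPKM values. Under library totals the median of all genes lay at 0.23 on the log2 scale, a shift of 0.19 from 0.03. Mki67 lay below that median in both scalings. A change of scaling moves all genes by nearly the same amount, so the scalings do not check each other on this.

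The level of the other 48 genes was set beside Mki67 within each library. Their summed CPM was 2222 ± 93.6 in Lenti-Klf4 libraries and 969 ± 7.74 in Lenti-Ctrl libraries (SD, n = 4 each), a ratio of 2.29. Divided by the Mki67 CPM of the same library, the sum was 25.9 ± 0.586 with Lenti-Klf4, ranging from 25.1 to 26.4, and 10.6 ± 0.391 with Lenti-Ctrl, ranging from 10.3 to 11.2. No Lenti-Klf4 library came near the Lenti-Ctrl range. A ratio within a library does not depend on how libraries were scaled. The log2 ratio of each gene to Mki67 was tested with limma over 18438 genes. It was higher with Lenti-Klf4 for 44 of the 48, against 41.1% of all genes, with log2 differences between 0.28 and 2.67. None of the 48 was lower by limma at an adjusted p under 0.05, against 31.4% of all genes, and 1 was at an unadjusted p under 0.05. The ratio was lower for 1 with log2 FPKM values, 1 with a 1 CPM filter and 1 with the replicate block. The 4 that did not pass were Pttg1 (log2 ratio -0.32, adjusted p = 0.0503), Ccnb2 (-0.17, 0.156), Cenpa (0.21, 0.109) and Plk1 (0.23, 0.0592). All these ratios share the same Mki67 values, so they are not independent of each other. Mki67 was taken as the reference with its near-level values known, so each ratio nearly repeats the gene's own log2 fold change. For Cdk1 the log2 ratio was 1.33 and the log2 fold change 1.24. The 44 are the same genes that edgeR called higher, so the ratios describe that rise again and are no separate support for it. Against Top2a, a gene of the same phase, the FPKM ratio of Top2a to Mki67 was 2.38 ± 0.0950 with Lenti-Klf4 and 0.789 ± 0.0210 with Lenti-Ctrl.

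**Figure D4:**
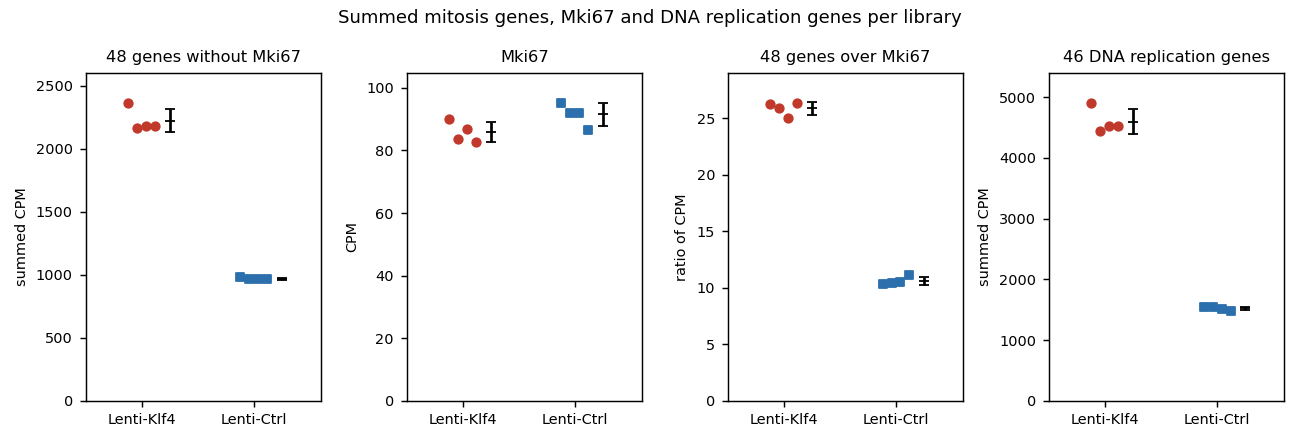
Per-library sums with Lenti-Klf4 left of Lenti-Ctrl, in CPM, for the 48 genes without Mki67, Mki67 alone, the ratio of these, and 46 DNA replication genes, with points for libraries and bars for mean ± SD. The 48 genes sum to 2222 and 969 CPM on average in Lenti-Klf4 and Lenti-Ctrl libraries, while Mki67 averages 85.8 and 91.5 CPM.

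Per transcript length, the order of the genes also differed between the groups. In FPKM, the most abundant in Lenti-Klf4 libraries was Smc4, with 29.6 ± 1.93 FPKM in Lenti-Klf4 libraries and 7.61 ± 0.319 FPKM in Lenti-Ctrl libraries (SD, n = 4 each), followed by Tpx2, with 22.1 ± 0.651 FPKM in Lenti-Klf4 libraries and 7.41 ± 0.358 FPKM in Lenti-Ctrl libraries. Bub3 was the most abundant in Lenti-Ctrl libraries, with 14.01 ± 0.344 FPKM in Lenti-Klf4 libraries and 10.7 ± 0.490 FPKM in Lenti-Ctrl libraries, and stood at place 8 with Lenti-Klf4. Racgap1 was at place 6 with Lenti-Klf4 and place 22 with Lenti-Ctrl, with 16.3 ± 0.386 FPKM in Lenti-Klf4 libraries and 3.75 ± 0.202 FPKM in Lenti-Ctrl libraries. Cdc20 was at place 7 with Lenti-Klf4 and place 2 with Lenti-Ctrl, with 15.3 ± 0.579 FPKM in Lenti-Klf4 libraries and 8.45 ± 0.960 FPKM in Lenti-Ctrl libraries. Across the 49 genes, which are not independent replicates, the log2 fold change had a Pearson r of -0.38 and a Spearman rank correlation of -0.32 with the log2 FPKM of the Lenti-Ctrl libraries, values that share the Lenti-Ctrl counts.

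The promoters were read because mitotic genes share elements close to the start of transcription, and the genes that did not rise could be set beside those that did. RefSeq windows of GRCm38.p6, from 250 bases before to 50 after the start, were matched by symbol for 40 of the 49 genes, giving 45 windows. TTTGAA, on either strand, was in 71.1% of them (32 of 45, Wilson 95% interval 56.6 to 82.3), against 14.1% of 20062 windows of all genes. CCAAT, on either strand, was in 75.6% (34 of 45, interval 61.3 to 85.8), against 37.4%, and both were in 62.2%, against 5.64%. The intervals treat each window as independent, although some genes gave several windows. The E2F letters TTTGGCGC, TTTCCCGC, TTTCGCGC or TTTGCCGC were in 6.67%, against 3.15%. In the 150 bases before the start alone, TTTGAA was in 31.1% of the members' windows, against 6.60%. The letters occurred in genes that rose and in genes that did not. TTTGAA was in the first window of 25 of 35 rising genes and of 4 of the 5 others, and the median log2 fold change was 1.08 over 29 genes with it and 1.22 over 11 without it. A match is a run of letters and not a measured binding site.

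The 250 bases before the start are printed 5′ to 3′ on the gene's strand for the 2 genes with the largest rise, Ncapg and Cenpk, for the 2 most abundant genes with a window that did not rise, Mki67 and Plk1, and for Ccnb1 and Ccnb2, which were added after their values were seen. Capitals mark TTTGAA and CCAAT on either strand (TTCAAA and ATTGG on the other), which do not overlap here. The windows are Ncapg chr5:45669675-45669924 (+), Cenpk chr13:104228361-104228610 (+), the first of 3 windows, Mki67 chr7:135716380-135716629 (-), Plk1 chr7:122159185-122159434 (+), Ccnb1 chr13:100786487-100786736 (-) and Ccnb2 chr9:70421555-70421804 (-).
Ncapg: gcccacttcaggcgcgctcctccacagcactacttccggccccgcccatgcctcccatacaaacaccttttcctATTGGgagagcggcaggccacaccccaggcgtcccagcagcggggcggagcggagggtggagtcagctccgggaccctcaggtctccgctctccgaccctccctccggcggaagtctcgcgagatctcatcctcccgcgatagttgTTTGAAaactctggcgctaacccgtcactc
Cenpk: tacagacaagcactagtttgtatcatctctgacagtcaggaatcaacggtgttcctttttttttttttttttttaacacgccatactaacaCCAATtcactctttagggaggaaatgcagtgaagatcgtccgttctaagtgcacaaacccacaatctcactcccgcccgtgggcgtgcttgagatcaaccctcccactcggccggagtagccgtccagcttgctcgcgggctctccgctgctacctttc
Mki67: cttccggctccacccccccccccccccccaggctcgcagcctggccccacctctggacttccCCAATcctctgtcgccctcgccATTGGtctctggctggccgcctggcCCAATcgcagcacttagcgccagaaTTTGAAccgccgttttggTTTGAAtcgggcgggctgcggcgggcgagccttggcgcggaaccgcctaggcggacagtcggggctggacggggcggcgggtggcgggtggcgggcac
Plk1: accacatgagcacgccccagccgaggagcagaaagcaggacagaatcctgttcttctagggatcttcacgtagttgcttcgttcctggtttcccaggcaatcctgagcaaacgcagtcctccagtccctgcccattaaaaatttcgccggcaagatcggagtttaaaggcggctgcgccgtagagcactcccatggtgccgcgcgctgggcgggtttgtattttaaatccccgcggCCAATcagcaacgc
Ccnb1: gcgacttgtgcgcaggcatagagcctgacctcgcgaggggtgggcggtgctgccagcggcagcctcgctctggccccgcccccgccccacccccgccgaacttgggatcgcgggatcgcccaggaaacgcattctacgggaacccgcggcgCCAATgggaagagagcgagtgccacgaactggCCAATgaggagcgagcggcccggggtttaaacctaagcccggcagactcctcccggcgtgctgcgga
Ccnb2: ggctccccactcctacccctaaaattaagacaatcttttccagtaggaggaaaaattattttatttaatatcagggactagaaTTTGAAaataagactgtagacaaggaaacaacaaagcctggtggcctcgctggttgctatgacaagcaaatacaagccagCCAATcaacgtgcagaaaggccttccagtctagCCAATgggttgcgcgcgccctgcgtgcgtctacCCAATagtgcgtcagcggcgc

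Counted from the start, with -1 the base before it, Ncapg had TTTGAA at -30 and ATTGG at -176. Mki67, which did not rise, had TTTGAA at -116 and -98 and CCAAT letters at -188, -166 and -141, so it carried more of these letters than Ncapg. Cenpk had CCAAT at -159 and no TTTGAA in the printed window. Plk1 had CCAAT at -14, with TTTGAA at 31, after the printed bases. Ccnb1, which rose, had CCAAT at -99 and -67 and no TTTGAA, and Ccnb2, which had the lower call, had TTTGAA at -167 and 5 and CCAAT at -87, -54 and -21.

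Other genes of the division programme rose alongside. The counts in this list and the lists that follow stand beside 37.5% of all genes tested called higher and 34.7% called lower. Of 73 tested among 74 further mitosis genes, 65 rose, 2 fell and 6 did not pass, with a median log2 fold change of 1.19. Kntc1, which encodes Rod of the RZZ complex at kinetochores, averaged 68.7 ± 3.67 CPM in Lenti-Klf4 libraries and 8.32 ± 0.629 CPM in Lenti-Ctrl libraries, a log2 fold change of 3.05. Trip13, an ATPase that remodels Mad2, had a log2 fold change of 2.39 and Kif20b, a kinesin of cytokinesis, of 1.96. The 2 that fell were Psrc1, a spindle protein, with 24.7 ± 1.28 CPM in Lenti-Klf4 libraries and 38.7 ± 2.23 CPM in Lenti-Ctrl libraries, and Iqgap3, a scaffold of the cell cortex, with a log2 fold change of -0.27 (adjusted p = 0.0134, edgeR). Gtse1, a microtubule-bound protein of G2 phase, did not pass at -0.07 (adjusted p = 0.355, edgeR).

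The anaphase-promoting complex and its regulators, which act on the proteins of mitosis, had a median log2 fold change of 0.25. Among the 18 genes, 11 rose, 4 fell and 3 were not called. The inhibitor Fbxo5, or Emi1, stood out with 32.6 ± 3.02 CPM in Lenti-Klf4 libraries and 5.53 ± 1.06 CPM in Lenti-Ctrl libraries (log2 2.56), while the subunits Anapc1 and Anapc11 had log2 fold changes of 0.65 and 0.94. Anapc15 (-0.66), Anapc2 (-0.23) and the activator Fzr1, or Cdh1 (-0.18), fell on the log2 scale. Ube2s, its ubiquitin-chain enzyme, averaged 85.5 ± 4.45 CPM in Lenti-Klf4 libraries and 82.8 ± 2.61 CPM in Lenti-Ctrl libraries and did not pass (log2 0.05, adjusted p = 0.355, edgeR).

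All 16 cohesin and condensin II genes rose, with a median log2 fold change of 0.77. The cohesin ATPase Smc3 had a log2 fold change of 1.65, and the cohesin regulators Pds5b and Pds5a of 1.64 and 0.93. Of 21 MuvB, DREAM and E2F regulators, 14 rose, 4 fell and 3 did not pass, with a median of 0.88. Mybl2, the B-Myb factor that joins MuvB, averaged 63.8 ± 2.38 CPM in Lenti-Klf4 libraries and 8.46 ± 0.350 CPM in Lenti-Ctrl libraries (log2 2.91), and E2f1 and its partner Tfdp1 rose by 1.48 and 1.47 on the log2 scale. E2f2 (-1.33), Rb1, the retinoblastoma gene (-0.62), and Tfdp2 (-0.47) fell on the log2 scale. Nfya, a subunit of the CCAAT-binding NF-Y, did not pass at 0.03 (adjusted p = 0.434, edgeR).

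The genes of DNA replication, which are expressed earlier in the cycle, were measured beside them. Of 46, 44 rose, 1 fell and 1 did not pass, with a median log2 fold change of 1.86. A rise above 1 on the log2 scale was called for 39, against 16.4% of all genes tested. Mcm2, a subunit of the replicative helicase, averaged 343 ± 18.9 CPM in Lenti-Klf4 libraries and 39.9 ± 2.24 CPM in Lenti-Ctrl libraries, and Mcm4, of the same helicase, had a log2 fold change of 2.73. Cdt1, which loads the helicase, had a log2 fold change of 2.71. Rpa1, of the single-strand binding complex, fell by 0.37 on the log2 scale, and Gmnn, the Cdt1 inhibitor geminin, did not pass (log2 0.22, adjusted p = 0.0544, edgeR). The replication genes summed to 4596 ± 208 CPM with Lenti-Klf4 and 1520 ± 31.5 CPM with Lenti-Ctrl, a ratio of 3.02. Divided by the sum of the 48 mitotic genes in the same library, that was 2.07 ± 0.0127 with Lenti-Klf4 and 1.57 ± 0.0300 with Lenti-Ctrl, with no overlap, a description for which no test was run.

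**Figure D5:**
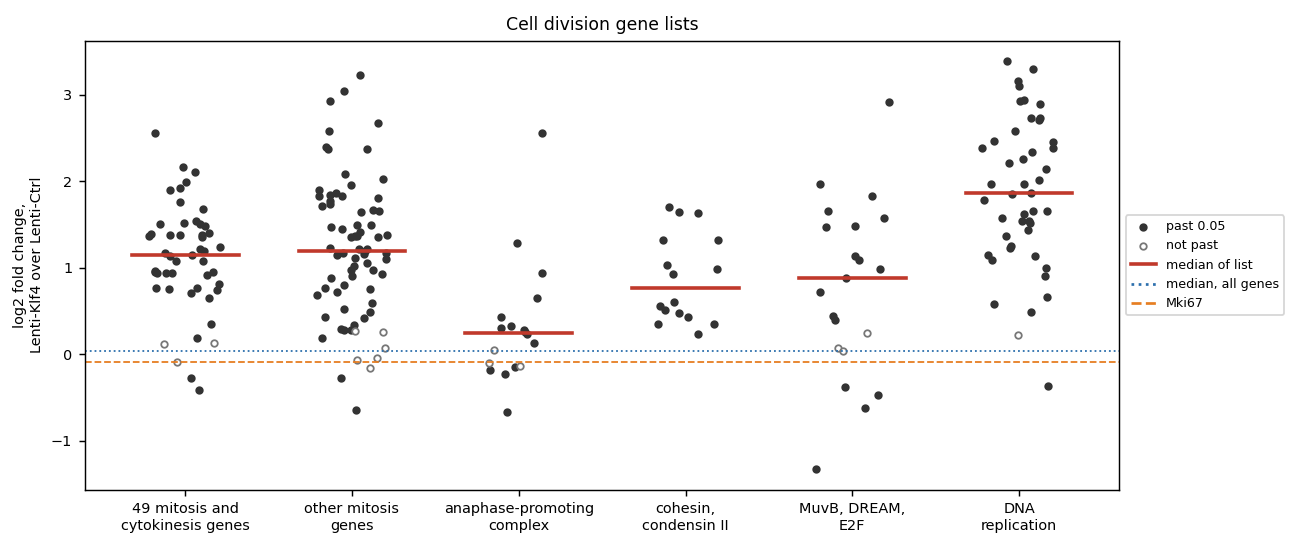
Log2 difference, Lenti-Klf4 over Lenti-Ctrl, for each list of genes, with filled points for genes past the edgeR threshold, open points for the others, a bar for the median of each list and lines for Mki67 and for the median of all genes tested. The median is 1.86 for DNA replication, 1.19 for further mitosis genes, 1.15 for the 49 mitotic genes, 0.25 for the anaphase-promoting complex and 0.03 for all genes tested.

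The authors' deposited table of DESeq2 results held 45 of the 49 genes among 11361, without Cdc25c, Cenpf, Cenpk and Ttk. Of the 45 in the authors' deposited table, 40 had a positive and 3 a negative log2 fold change at an adjusted p under 0.05. The 3 were Ccnb2, Mki67 and Pttg1, and Plk1 and Cenpa did not pass there either. The mark for an upregulated gene was given to 11 of the 45 in the authors' deposited table, and that for a downregulated gene to none. No gene there with an absolute log2 fold change under 1.32 carried either mark. Kif4, at 1.317 there, was thus unmarked although its adjusted p by DESeq2 was 3.32e-51. The shares of all 11361 genes with a mark or past the threshold were not counted here. The edgeR log2 fold changes lay a median of 0.08 above those of the authors' deposited table over the shared genes.

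Reads of overlapping genes limit some of these values. The library preparation marks strand, but the sources used here do not say whether counting used it. For 10 of the 49 an overlapping gene on the opposite strand held at least 10% as many counts. They are Bub3, Ccna2, Cdc20, Cdca8, Cenpk, Kif20a, Kif4, Ncapg, Nusap1 and Prc1, and their partners' log2 fold changes ran from -0.59 for Elovl1, beside Cdc20, to 1.57 for Lcorl, beside Ncapg. Overlap was taken over whole gene spans and ran from 53 bases for Cdc20 to 21810 bases for Prc1, so these genes are not equally exposed. The share of all genes that meet the same rule was not counted.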

How the data were processed

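Polyadenylated RNA of 8 libraries was sequenced in pairs after a strand-marking second-strand step, per the labels' protocols. Raw counts for each gene were deposited by the authors together with FPKM values, a unit per transcript length and library size. Per the submitters' processing notes, the tools included HISAT2 2.2.1, cutadapt 1.9, StringTie 2.1.6 and DESeq2, and the build was GRCm39. Counting and strand settings are not given in the sources used here. A second table the authors deposited gives DESeq2 log2 fold changes with p-values and adjusted p-values per gene, while its mean normalised signal and its test statistic, a score, were deposited too and not used.

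Counts were tested here with edgeR 4.0.16 in R 4.3.3 (filterByExpr, TMM, quasi-likelihood test, all 8 libraries, no covariate), with Benjamini-Hochberg adjustment over 18439 genes at a threshold of 0.05. CPM values use the TMM-scaled totals. The edgeR test gives no standard error. Each SE given with an edgeR log2 fold change is the absolute log2 fold change divided by the square root of the test's F statistic, an approximation. Ratios to Mki67 were tested by limma 3.58.1 after adding a prior count of 2 before taking log2 CPM. Both procedures were run on simulated counts in which few genes changed, equally up and down. Most genes changed in the real data, so that run does not check the scaling between libraries. Alternatives used other scalings and filters, DESeq2 1.42.0, limma-voom, log2(FPKM + 1) and log2(FPKM + 0.1), a 1.5-fold threshold, a replicate block and each library left out. All pairs of libraries within a group differed beyond counting noise. The genes and the lists set beside them were chosen with earlier results of these data known. Every gene of the 49 is named. From each other list of cell division genes the text names the 3 with the smallest adjusted p in each direction and the most abundant that did not pass, and the few cell type markers named were chosen after their values were seen. Promoters on chromosome 18 were left out of the choice of printed sequences, while the shares of windows used no filter by chromosome.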

Additional observations from a re-analysis of the deposited data

Results flagged for a closer look

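In 6 of 98 groups of 4 libraries, 1 library lay far from the other 3 relative to the range of its group, and chance flags about 1 in 20 such groups. Lenti-Klf4 replicate 1 was the library in 3 of them. Top2a was at 201.8 CPM there, against 176 to 178 CPM in the other Lenti-Klf4 libraries. Bub1b was at 48.97 CPM there, against 44.6 to 45.3 CPM in the others. Pttg1 was lowest there, at 8.30 CPM against 10.8 to 10.998 CPM. Cenpk was lowest in Lenti-Klf4 replicate 4, at 9.12 CPM against 10.6 CPM in each of the others. In the Lenti-Ctrl group, Cenpe was lowest in replicate 3, at 14.03 CPM against 17.96 to 18.6 CPM, and Bub1 was highest in replicate 4, at 15.9 CPM against 13.4 to 13.7 CPM. None of these genes lost its call when that library was left out.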

How the results depend on the processing

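Of the 49 genes, 41 had the same call under all 18 alternatives, and the 8 others were Bub3, Ccnb2, Cdc20, Cenpa, Mki67, Nusap1, Plk1 and Pttg1. All 44 rising genes were called higher again with another scaling, another filter, DESeq2, limma-voom, log2 FPKM and the replicate block, while 41 were against a 1.5-fold change. The count of lower calls rests on Ccnb2, Mki67 and Pttg1. It was 0 with library totals alone, with log2 FPKM with 1 or 0.1 added and against a 1.5-fold change, and 1 with no filter. Mki67 turned positive with library totals alone (0.10), with log2 FPKM with 1 added (0.0948) and with 0.1 added (0.105), and was called lower with RLE factors, a 1 CPM filter, DESeq2, limma-voom and the replicate block. The median log2 fold change of the 49 was 1.35 with library totals alone, 1.11 with a 1 CPM filter, and 0.996 and 1.32 with log2 FPKM with 1 and 0.1 added. Over all genes tested the median moved as well, from 0.0338 to 0.228 with library totals alone and to 0.104 and 0.206 with these FPKM values. Of all genes, 8328 were higher and 5172 lower with library totals alone, against 6914 and 6393 in the main test. With log2 FPKM with 1 and 0.1 added, 8542 and 8563 were higher and 5268 and 5308 lower. Against a 1.5-fold change, 3833 of all genes were higher and 3707 lower, with 4 genes of the anaphase-promoting complex and 8 of cohesin and condensin II higher. The cause of these moves was not tested. TTTGAA was in 31.1% and TTTGAA with CCAAT in 26.7% of the members' windows when only the 150 bases before the start were read.

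With 1 library left out, 43 to 45 of the 49 were called higher and 1 to 3 lower, with a median of 1.12 to 1.17. The lower count was 1 without Lenti-Klf4 replicates 2, 3 or 4 or Lenti-Ctrl replicates 1, 2 or 3, and 3 without Lenti-Ctrl replicate 4. Among all genes 6604 to 6917 were higher and 6158 to 6533 lower. Higher calls were 10 to 11 in the anaphase-promoting complex, 16 to 16 in cohesin and condensin II, 44 to 45 in DNA replication, 13 to 14 in MuvB, DREAM and E2F and 63 to 65 in further mitosis genes. Ratios to Mki67 were higher for 44 to 45 and lower for 0 to 1, the 1 without Lenti-Klf4 replicate 4 or Lenti-Ctrl replicate 1. A ratio was lower for 1 gene with log2 FPKM with 1 added, with a 1 CPM filter and with the replicate block. Libraries with the same replicate number did not deviate together (correlations -0.00542 to 0.0220, against -0.0320 to 0.0172 for other numbers), and 2 of 4 Lenti-Klf4 libraries correlated best with their own number, so the numbers are not taken as pairs. With the replicate block 44 of the 49 were higher and 2 lower, Mki67 and Pttg1 in place of Ccnb2 and Pttg1. Precision was lowest for Spc24 and Cenpk, with the widest standard errors of the 49 (0.224 and 0.154 on the log2 scale).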
